A study of Mus musculus with 3 samples.

Results

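Malat1, Neat1, Rn45s and Meg3 are 4 RNAs that are not translated, and they were followed as a set of 4 of the 24982 gene symbols measured in LKS cells. LKS cells are sorted from mouse bone marrow as Kit-positive and Sca1-positive cells that lack lineage markers, a fraction that holds blood stem cells and early progenitors. They were sorted from CD73-/- recipient mice, with 1 library (KO), and from WT recipient mice, with 2 libraries. CD73, encoded by Nt5e, makes extracellular adenosine from AMP. What both groups share is the sort, the bone marrow source, total RNA as the starting material and the recipient status of the mice. The strain, age and sex of the mice, the nature of the transfer that made them recipients, the donor or recipient origin of the cells and any pooling of mice are not stated in the labels. The labels also name the cells LLP, a term they do not explain. The 4 symbols were chosen by their counts in these same libraries, their share of each library and the direction from WT to KO, so their levels and differences between KO and WT are given as a description, with no test.

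Malat1 is a long nuclear RNA that collects in nuclear speckles, where splicing factors gather. Neat1, its neighbour in the genome, is the scaffold of paraspeckles, nuclear bodies that are built on the long form of the RNA and that hold back certain RNAs and proteins. Rn45s is the precursor from which RNA polymerase I transcription gives most ribosomal RNA, and it is a multi-copy gene, so its count sums copies that cannot be told apart. Meg3 is a maternally expressed RNA of the imprinted Dlk1-Dio3 region, which has been linked to fetal and adult blood stem cells in mice.

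Malat1 lies on chromosome 19 from 5795690 to 5802672 and Neat1 on the same chromosome from 5824708 to 5845480, 22035 bases apart and both on the minus strand (GRCm38, the assembly also called mm10). Meg3 lies on chromosome 12 from 109540996 to 109571729 on the plus strand. All 3 are annotated as long noncoding RNAs by RefSeq, and no position for Rn45s was used here. GENCODE places Gm37376 on the opposite strand within Malat1 and Gm26906 on the opposite strand within Meg3. The use of strand in counting is not given in the sources used here, so reads from the opposite strands of such a pair could not be separated. Genome coordinates come from the RefSeq and GENCODE M21 annotations of GRCm38.

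The stretch where the short Neat1 transcript ends is shown first, because the counts of Neat1 turn on it. It runs over chr19:5842247-5842366 on the minus strand and is read from the GENCODE long transcript. The capitals mark the polyadenylation signal AATAAA, after which the short transcript has 14 more bases. Its last base is base 3172 of the long transcript. The long transcript reads on through this end.
Neat1 end of the short transcript: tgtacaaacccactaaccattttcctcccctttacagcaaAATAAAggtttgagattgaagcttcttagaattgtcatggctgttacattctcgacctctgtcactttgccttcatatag

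The end of Malat1 is shown because the mature RNA is made there without a poly(A) tail. The stretch is chr19:5795924-5796081 on the minus strand, from the GENCODE transcript. The capitals mark a genomically encoded run of 12 A bases, and the last 58 bases are the tRNA-like small RNA mascRNA, which is cut off by RNase P.
Malat1 A-rich tract and mascRNA: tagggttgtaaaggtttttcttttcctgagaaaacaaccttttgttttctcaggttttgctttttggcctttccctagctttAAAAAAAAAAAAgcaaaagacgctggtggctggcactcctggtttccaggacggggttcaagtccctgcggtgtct

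Promoter windows of 300 bases were matched in RefSeq (GRCm38.p6) for Malat1 and Meg3, 2 of the 4 RNAs. They are shown because adenosine receptors act on cAMP, and cAMP-responsive factors bind the element TGACGTCA and its parts TGACG and CGTCA, which were searched on both strands and overlap each other in the full element. The capitals mark these letters. The Malat1 window, chr19:5802623-5802922 on the minus strand, holds 3 of the short parts and 0 full elements. The first Meg3 window, chr12:109540746-109541045 on the plus strand, holds 1 full element. The second Meg3 window, chr12:109545148-109545447 on the plus strand, holds 0 full elements and 0 short parts and is not printed.
Malat1 promoter window: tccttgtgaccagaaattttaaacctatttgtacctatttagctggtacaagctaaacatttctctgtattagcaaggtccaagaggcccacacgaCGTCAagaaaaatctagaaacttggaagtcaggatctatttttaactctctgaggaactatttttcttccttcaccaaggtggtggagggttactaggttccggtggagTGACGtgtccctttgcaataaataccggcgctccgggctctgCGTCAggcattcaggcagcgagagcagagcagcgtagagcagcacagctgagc
Meg3 promoter window: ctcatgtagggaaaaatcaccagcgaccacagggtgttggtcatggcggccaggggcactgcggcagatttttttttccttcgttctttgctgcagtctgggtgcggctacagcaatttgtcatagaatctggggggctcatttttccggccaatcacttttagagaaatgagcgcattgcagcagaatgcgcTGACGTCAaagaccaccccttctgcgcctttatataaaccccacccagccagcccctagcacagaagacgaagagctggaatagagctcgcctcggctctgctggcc
Of all 32851 RefSeq promoter windows of this length, 1.79% hold the full element, 20.8% hold at least 1 short part and 1.03% hold at least 3. A match is a run of letters and not a bound site.

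Depth was low. The libraries held 264704 gene-level counts in KO, 361638 in WT replicate 1 and 324954 in WT replicate 2, so that 1 count was worth 3.78, 2.77 and 3.08 CPM (counts scaled to the library total) in these libraries. LKS genes were present, with 147, 187 and 207 counts for Kit and 36, 60 and 19 for Ly6a, which encodes Sca1, in KO, WT replicate 1 and WT replicate 2. The B cell gene Cd79a and the T cell gene Cd3e had 0 counts in every library. Of the 10 LKS marker genes with at least 50 counts summed over the libraries, 8 were lower in KO than in both WT libraries and 0 were higher than both, against 38.3% lower and 31.6% higher among all 4845 genes at that depth. The 8 mature neutrophil markers summed to 378 CPM in KO, against 824 and 1114 CPM in the WT libraries. The 8 erythroid markers summed to 612 CPM in KO, against 429 and 129 CPM in WT. Hba-a1, Hba-a2 and Hbb-bs were at 0 throughout, and Hbb-bt gave most of the erythroid sum, with 114 counts in KO and 151 and 42 in WT. As CPM, Hbb-bt was 431 in KO and 418 and 129 in WT. Epor had 25 counts in KO and 3 and 0 in WT, and Car1 had 20 in KO and 0 in both WT libraries. The monocyte and macrophage markers summed to 132 CPM in KO and to 108 and 446 CPM in WT, the dendritic cell markers to 102 CPM in KO and to 11.1 and 0 CPM in WT, and the stroma and endothelium markers to 128 CPM in KO and to 144 and 191 CPM in WT. B lineage markers summed to 0 CPM in KO and to 13.8 and 55.4 CPM in WT. T and NK markers summed to 155 CPM in KO and to 191 and 105 CPM in WT. Single genes carried several of these sums. The dendritic sum was Clec9a alone in KO, with 27 counts, and Itgax alone in WT, with 4 and 0. Pecam1 gave most of the stroma and endothelium sum and Nkg7 most of the T and NK sum. In every library, 4 of 6 dendritic, 6 of 8 stroma and endothelium and 3 of 5 T and NK markers had 0 counts. The part of these differences in the values below was not tested. In bulk samples, fewer cells of a type and less RNA per cell cannot be told apart.

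Rn45s and Malat1 took a larger share of the KO library than of either WT library, and Neat1 took a smaller one. Together with Meg3 they made up 2.42% of the KO library, against 1.56% and 1.66% of the WT libraries. Rn45s alone supplied most of this, being the gene with the highest count in each of the 3 libraries.

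Rn45s had 5481 counts in KO, against 4795 in WT replicate 1 and 4731 in WT replicate 2. The KO library was the smallest, so the difference was larger as a share. Rn45s was 2.07% of the KO library (95% exact binomial interval 2.02 to 2.13), against 1.33% (1.29 to 1.36) and 1.46% (1.41 to 1.50) of the WT libraries. The KO value stood above both WT values. The intervals cover counting error only. On the CPM scale, Rn45s was 20706 in KO and 13909 ± 919 in WT (SD, n = 2), a ratio of 1.49. The ratio was 1.56 against WT replicate 1 and 1.42 against WT replicate 2, while the WT libraries stood at 0.911 to each other.

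Rn45s had 3598 FPKM in KO, against 2284 and 2515 FPKM in the WT libraries. FPKM is the deposited value scaled to transcript length and to library size. Counts and FPKM together imply that Rn45s was counted over 5853 bases in KO and WT replicate 1 and over 5852 bases in WT replicate 2. This is shorter than the whole ribosomal precursor, and which stretch of it was counted is not given in the sources used here. On this per-length scale Rn45s ranked 8 among all genes in KO, and 17 and 9 in the WT libraries. Whether ribosomal RNA was depleted or poly(A) RNA was selected before sequencing is not given either.

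**Figure D1:**
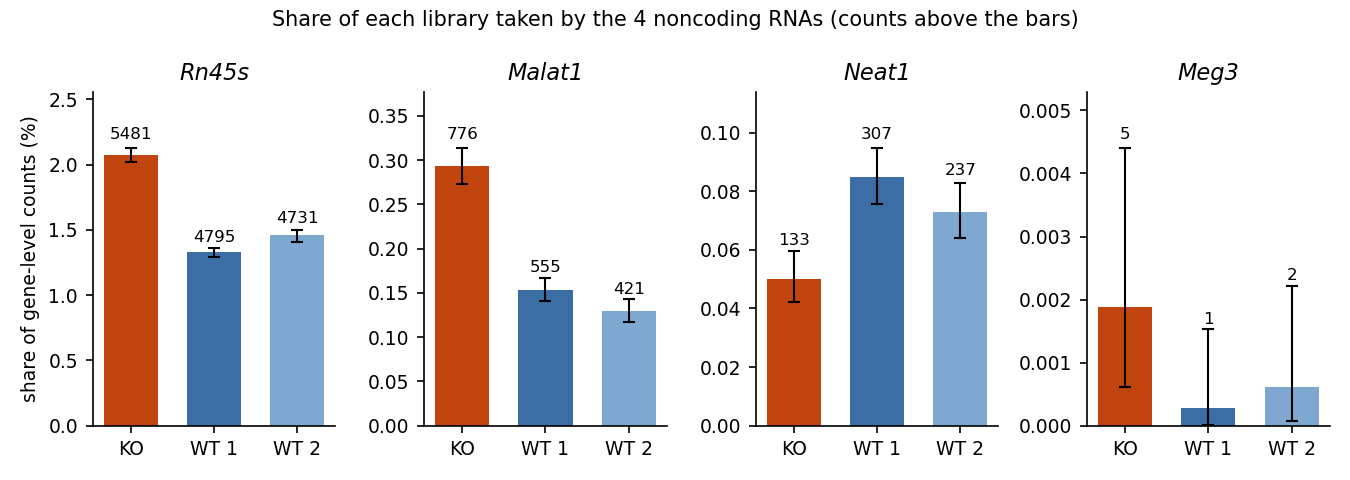
Share of all gene-level counts, in percent, taken by Rn45s, Malat1, Neat1 and Meg3 in KO, WT replicate 1 and WT replicate 2, with a separate linear axis for each RNA. Error bars are 95% exact binomial intervals for counting error and the numbers are counts; Rn45s and Malat1 stand higher in KO, with 5481 and 776 counts in the smallest library, and Neat1 lower, with 133.

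Malat1 had 776 counts in KO, against 555 and 421 in the WT libraries. As a share of the library this was 0.293% in KO (0.273 to 0.314), against 0.153% (0.141 to 0.167) and 0.130% (0.117 to 0.143) in WT. KO stood apart from both WT libraries, which were close to each other. On the CPM scale, Malat1 was 2932 in KO and 1415 ± 169 in WT (SD, n = 2), a ratio of 2.07. Against the single WT libraries the ratio was 1.91 and 2.26, and between the WT libraries it was 1.18. By count, Malat1 was gene 12 of the KO library, against 37 and 46 in the WT libraries. Its FPKM was 429 in KO and 223 and 189 in WT, with an implied length of 6949, 6949 and 6948 bases, close to the 6983 bases of the annotated transcript.

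The small RNA mascRNA, shown above at the end of Malat1, has a row of its own in the files. It had 0 counts in KO and in both WT libraries, which allows up to 0.00113% of the KO library and 8.30e-04% and 9.23e-04% of the WT libraries. At 58 bases it is far shorter than the other transcripts named here.

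Neat1 had 133 counts in KO, against 307 and 237 in the WT libraries. It was 0.0502% of the KO library (0.0421 to 0.0595), against 0.0849% (0.0757 to 0.0949) and 0.0729% (0.0639 to 0.0828) of the WT libraries. The KO value lay below both WT values. On the CPM scale, Neat1 was 502 in KO and 789 ± 84.6 in WT (SD, n = 2), a ratio of 0.637. The ratio was 0.592 against WT replicate 1 and 0.689 against WT replicate 2, and 1.16 between the WT libraries.

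Malat1 and Neat1, neighbours on chromosome 19, therefore stood on opposite sides of WT. The count of Malat1 was 5.83 times that of Neat1 in KO, and 1.81 and 1.78 times in the WT libraries. This ratio is formed within a library and does not depend on how libraries are scaled. The count of Rn45s was 7.06 times that of Malat1 in KO and 8.64 and 11.2 times in WT, where the WT libraries differed from each other as well.

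The reads of Neat1 fell almost wholly within its short transcript. The files hold 1 row for the short transcript and 1 for the long one, and a read inside the short transcript is counted in both rows. Such a read can come from either transcript. In KO both rows held 133 counts, and in WT replicate 1 both held 307. In WT replicate 2 the long row held 237 and the short row 233. The reads that belong to the long transcript alone were therefore 0 of 133 in KO, which by the limit of 3 counts allows up to 2.26%, 0 of 307 in WT replicate 1, which allows up to 0.977%, and 4 of 237 in WT replicate 2, or 1.69% (exact binomial interval 0.462 to 4.26). By length, 85.5% of the long transcript, 17767 of 20771 bases, lies outside the short one as GENCODE annotates them. GENCODE gives the short transcript 3004 bases, while counts and FPKM together imply 3194 in KO and WT replicate 1, so densities per kilobase are approximate. On GENCODE lengths the short transcript held 44.3 counts per kilobase in KO and 102 and 77.6 in WT. The rest of the long transcript held 0 in KO and 0 and 0.225 in WT. One of the WT libraries thus had 0 such reads, as KO had. Reads that only the long form can give, the form on which paraspeckles are built, were thus at or near 0 at this depth in both groups. Whether poly(A) RNA was selected is not given in the sources used here. A lack of these reads is therefore not read as a lack of the long form.

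The deposited FPKM of Neat1 stood on different transcripts in the WT libraries. It was 160 for the short and under 0.01 for the long transcript in KO, and 268 for the short and under 0.01 for the long transcript in WT replicate 1. In WT replicate 2 it was 0 for the short and 35.4 for the long transcript, although 233 of the 237 counts lay in the short one. Summed over the rows, Neat1 ranked 612 by FPKM in KO, and 282 and 3034 in the WT libraries. By count, the WT libraries placed it at 118 and 124. The 2 WT libraries thus differ far more in the FPKM of Neat1 than in its counts, and the FPKM scale puts KO between them. Counts and FPKM together imply a length of 3194 bases in KO and WT replicate 1 and of 20837 bases in WT replicate 2. The FPKM values of the libraries are thus scaled to unlike lengths. The log2 ratio of KO to mean WT, -0.65 in CPM, was 0.08 in FPKM as deposited. With these unlike lengths, FPKM as deposited gives no direction for Neat1 across the libraries, and the direction given holds for counts.

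**Figure D2:**
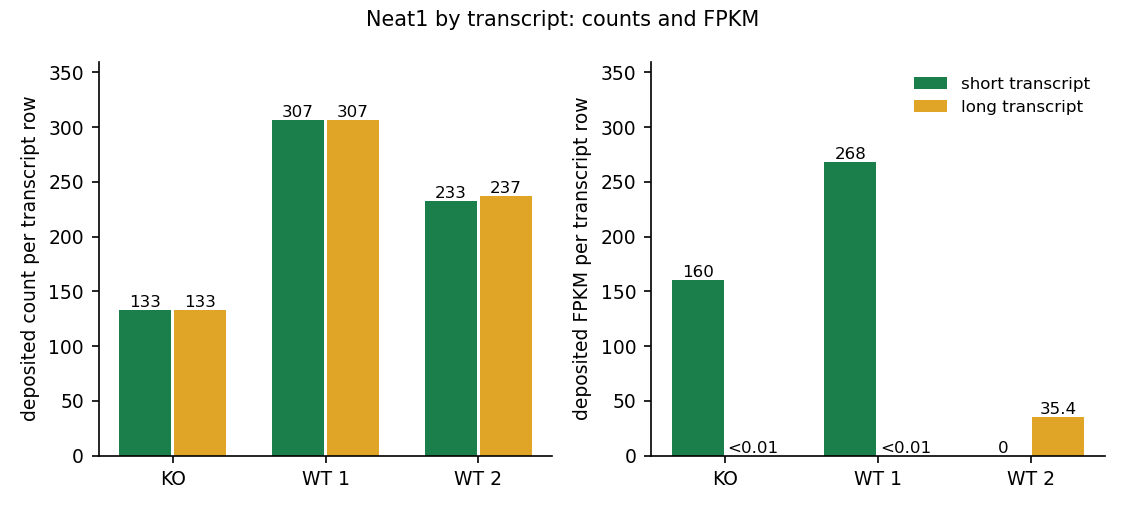
Deposited counts (left) and deposited FPKM (right) of the short and the long Neat1 transcript in KO, WT replicate 1 and WT replicate 2, on linear axes. Counts of the rows are equal or nearly so in each library, while FPKM is given to the short transcript in KO and WT replicate 1 (160 and 268) and to the long one in WT replicate 2 (35.4).

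Meg3 was near the limit of detection. It had 5 counts in KO, against 1 and 2 in the WT libraries, or 18.9 CPM in KO and 2.77 and 6.15 CPM in WT. The ratio of KO to the pooled WT libraries was 4.32, with a 95% interval of 0.841 to 27.8 from counting error alone. The counts stood in the rows of 2 of the 3 Meg3 transcripts, with 0 in the remaining one in every library. In its imprinted region, Dlk1, Rtl1, Rian, Mirg, Dio3 and Dio3os had 0 counts in every library, as did Begain and Slc25a47. Wars, a tRNA synthetase gene near the region, had 27 counts in KO and 39 and 15 in WT.

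Many genes stood outside the WT pair in the KO library. Of the 4845 genes with at least 50 counts summed over the libraries, KO lay above both WT libraries in 31.6%, below both in 38.3% and between them in 30.1%. Among the 271 genes that reached 200 counts in a library, which include Rn45s, Malat1 and Neat1, the shares were 36.5% above, 33.9% below and 29.5% between. Lying on 1 side of both WT libraries was thus common, and nothing is read from the side on which the 4 RNAs lie. By size, the log2 ratio of KO to mean WT was 1.05 for Malat1, rank 10 from the top of these 271 genes. It was 0.57 for Rn45s, rank 46 from the top, and -0.65 for Neat1, rank 49 from the bottom, with a median of 0.05 over the 271 genes. Neat1, with 133 counts in KO, reached 200 counts in the WT libraries alone. The 4 RNAs were also chosen by their direction, so these ranks are a description and no test.

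**Figure D3:**
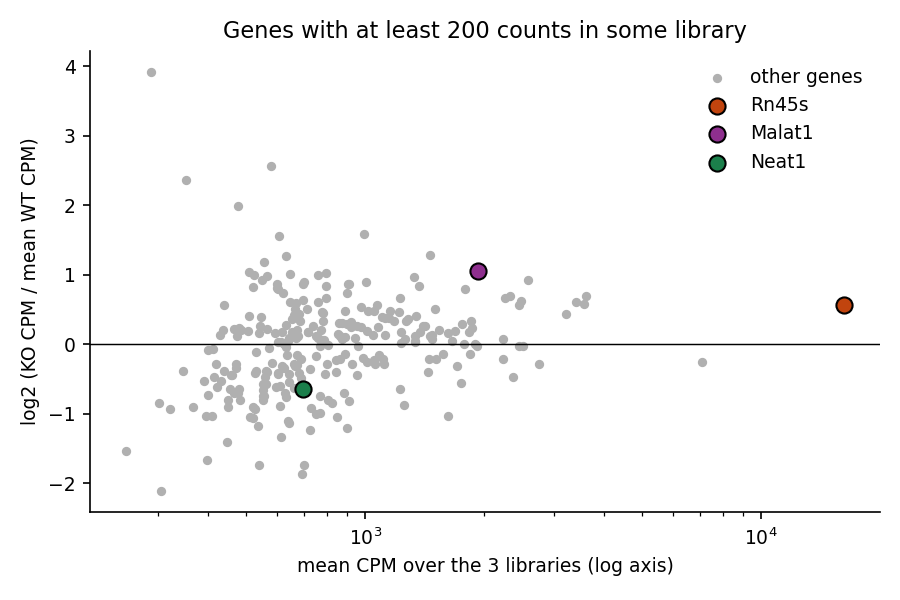
Log2 ratio of KO CPM to mean WT CPM (vertical) against mean CPM over the 3 libraries (horizontal, log axis) for the 271 genes that reached 200 counts in a library; each point is a gene. Malat1 at 1.05 lies near the upper edge of genes of like abundance, Rn45s at 0.57 is the point with the highest CPM, and Neat1 at -0.65 lies inside the cloud. Neat1 reached 200 counts in the WT libraries alone.

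In the fit across all genes (edgeR quasi-likelihood test, adjusted p threshold 0.05), 8 of 7984 tested genes were called, or 0.100%, 8 higher and 0 lower. With p left unadjusted, 282 genes were higher and 520 lower at the same threshold, and DESeq2 called 0. These counts over all genes tested are the background for the counts of each list below, adjusted and unadjusted. The median log2 fold change was -0.31 over all genes tested. It was -0.11 over the 6296 tested genes with counts in every library, so each list median below is to be read beside both. Malat1, Neat1 and Rn45s were among the genes tested and Meg3 was too low to be. The fitted log2 fold change was 0.61 for Rn45s, 1.09 for Malat1 and -0.61 for Neat1. The fit takes the spread of the single KO library to equal that of the WT pair. The labels do not tie the WT libraries to separate mice, so the spread used is that between 2 libraries, which could be a technical one. The fit shares spread over genes, so an SE or p-value does not measure the WT spread of its own gene alone. Ewsr1, at 719 and 299 CPM in WT, had an SE of 0.59, and Smarca4, at 559 and 514 CPM in WT, had 0.58.

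Over all noncoding genes, taken as the 4195 symbols with noncoding RefSeq rows alone, the share of the library was 4.83% in KO and 3.63% and 3.78% in WT. The class includes transcribed pseudogenes of ribosomal proteins. Without the 4 RNAs it was 2.41% in KO and 2.06% and 2.13% in WT. Rn45s made up 42.9% of noncoding counts in KO, and 36.6% and 38.5% in WT. Malat1 was number 2 in KO and WT replicate 1 and number 4 in WT replicate 2, and Neat1 was number 10 in KO and 7 in each WT library. Of the 85 noncoding genes with at least 50 summed counts, KO lay above both WT libraries in 45.9%, below both in 24.7% and between them in 29.4%. Eyelinc18 had 371 counts in KO and 423 and 465 in WT, and Gm6548 had 345 in KO and 312 and 525 in WT.

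Other long noncoding RNAs lay on both sides of WT. Of 34 listed symbols 32 were in the files, 11 had 0 counts everywhere and 13 were tested. The edgeR test called 0 of them, against 0.100% of all genes tested, 1 higher and 2 lower genes had an unadjusted p under 0.05, and DESeq2 called 0. The median log2 fold change was -0.09, against -0.31 over all genes tested. Gas5, a host of small nucleolar RNAs, had 112 counts in KO and 197 and 152 in WT (423 CPM in KO, 506 ± 54.4 CPM in WT, SD, n = 2). Snhg1, another such host, had 35 counts in KO and 104 and 51 in WT. Kcnq1ot1, an imprinted antisense RNA, had 66 counts in KO and 42 and 48 in WT, and Tug1 had 44 in KO and 51 and 44 in WT. Of structural small RNAs, 12 of 18 listed symbols were in the files and 10 of these had 0 counts everywhere. Rmrp, the RNA of RNase MRP, had 0 counts in KO and 2 and 0 in WT, and Rpph1, the RNA of RNase P, had 0 in KO and 0 and 11 in WT.

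Nuclear speckle proteins are the neighbours of Malat1 in the nucleus. All 20 listed genes were tested and edgeR called 0, against 0.100% of all genes, with 0 at an unadjusted p under 0.05 and 0 by DESeq2. The median log2 fold change was -0.23, against -0.31 over all genes tested, with 7 positive and 13 negative values. All 20 had counts in every library, and the tested genes with such counts had a median of -0.11. KO lay below both WT libraries in 11 of the 20 and above both in 2, against 38.3% and 31.6% of all genes. Srrm2, a large scaffold protein of speckles, had 1235 CPM in KO and 1226 ± 72.1 CPM in WT (SD, n = 2). Srsf6, an SR splicing factor, had 265 counts in KO and 504 and 305 in WT. Sf3b1, the branch site factor, had 77 counts in KO and 262 and 194 in WT (log2 fold change -1.14, SE 0.63, adjusted p 0.57 by edgeR).

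The paraspeckle proteins were split. Of 18 listed genes 17 were tested, edgeR called 0, 1 higher and 2 lower genes had an unadjusted p under 0.05, and DESeq2 called 0. The median log2 fold change was -0.04, against -0.31 over all genes tested. Of the 15 with at least 50 summed counts, KO lay above both WT libraries in 5 and below both in 8, against 31.6% and 38.3% of all genes. Taf15, an RNA-binding protein, had 285 counts in KO and 200 and 60 in WT (log2 fold change 1.58, SE 0.54, adjusted p 0.21 by edgeR). Ewsr1, another RNA-binding protein, had 161 counts in KO and 260 and 97 in WT, so for both genes the WT libraries differed widely from each other. Sfpq, a core protein that binds Neat1, had 80 counts in KO and 166 and 136 in WT. Its partner Nono had 84 in KO and 160 and 128 in WT. Hnrnpk, needed for paraspeckles in cultured cells, had 43 counts in KO and 216 and 142 in WT (log2 fold change -1.63, SE 0.76, adjusted p 0.43 by edgeR).

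**Figure D4:**
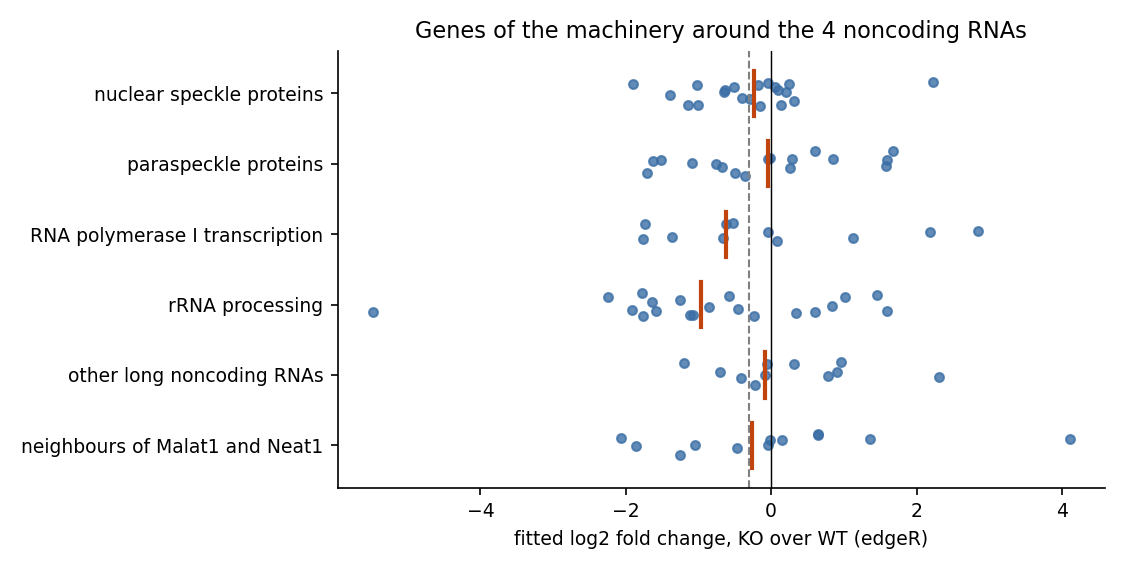
Fitted log2 fold change of KO over WT (edgeR) for the tested genes of 6 lists; each point is a gene with counts in both groups, placed with vertical jitter. Red lines are list medians over all tested members, in which a gene without counts in 1 group enters at its bound. The dashed line is the median of all genes tested, -0.31, while the tested genes with counts in every library had a median of -0.11. Points of every list lie on both sides of 0.

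The RNA polymerase I machinery transcribes Rn45s. Of 16 listed genes 13 were tested and edgeR called 0, against 0.100% of all genes, with 0 higher and 2 lower genes at an unadjusted p under 0.05 and 0 called by DESeq2. The median log2 fold change was -0.62, against -0.31 over all genes tested, and it was the same when a gene without KO counts entered at its bound. KO lay below both WT libraries in 6 of the 10 genes with at least 50 summed counts and above both in 2, against 38.3% and 31.6% of all genes. Ubtf, the factor that opens ribosomal DNA, had 431 CPM in KO and 419 ± 60.5 CPM in WT (SD, n = 2). Polr1b, the second largest subunit of the polymerase, had 40 counts in KO and 90 and 64 in WT. The 2 genes above both WT libraries were Polr1c and Polr1d. Polr1c had 33 counts in KO and 4 and 35 in WT, and Polr1d had 32 in KO and 16 and 3 in WT. Rrn3, which recruits the polymerase to its promoter, had 0 counts in KO and 41 and 47 in WT, which is at least 11.4-fold lower when KO is set to the floor of 3 counts. Cd3eap, a polymerase subunit, had 0 counts in KO and 60 and 22 in WT. Neither passed the test (adjusted p 0.18 for Rrn3 and 0.21 for Cd3eap by edgeR).

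For ribosomal RNA processing, all 20 listed genes were tested, 14 had a negative log2 fold change and the median was -0.97, against -0.31 over all genes tested. EdgeR called 0, with 0 higher and 1 lower gene at an unadjusted p under 0.05, and DESeq2 called 0. KO lay below both WT libraries in 10 of the 17 genes with at least 50 summed counts and above both in 3, against 38.3% and 31.6% of all genes. Ncl, the nucleolar protein nucleolin, had 245 counts in KO and 540 and 243 in WT. Npm1, a nucleolar chaperone, had 143 in KO and 357 and 173 in WT. Fbl, the methyltransferase of ribosomal RNA, had 26 in KO and 80 and 70 in WT. Of 9 tested genes of RNA 3′ processing and poly(A) binding edgeR called 0, with 0 higher and 1 lower gene at an unadjusted p under 0.05 and 0 called by DESeq2, and the median was -0.20, against the same -0.31. Pabpc1, the cytoplasmic poly(A)-binding protein, had 348 counts in KO and 543 and 500 in WT. Elac2, which trims the end of tRNAs and of mascRNA, had 19 in KO and 38 and 33 in WT.

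Protein-coding neighbours of Malat1 and Neat1 lay on both sides of WT. Of 14 tested genes edgeR called 0, with 0 higher and 1 lower gene at an unadjusted p under 0.05 and 0 called by DESeq2, and the median was -0.26, against -0.31 over all genes. Frmd8, beyond Neat1 from 5850974 to 5875269, had 10 counts in KO and 42 and 55 in WT. Slc25a45, next to it from 5877801 to 5885768, had 62 in KO and 31 and 33 in WT. Ehbp1l1 had 64 counts in KO and 81 and 73 in WT, and Sipa1 had 53 in KO and 59 and 83 in WT.

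The genes closest in pattern were sought among the 268 other genes that reached 200 counts in a library, by the root mean square difference of centred log2(CPM + 1) over the 3 libraries. With 3 points this is a description. The limit of 200 counts also lets a gene in through the library where it is high. Rpl21 reached it in KO alone, and Pdia3 and Cd34 in WT replicate 1 alone. The part of this limit in the likeness was not tested. For Malat1 they were Rps16, a protein of the small ribosomal subunit (difference 0.0880), H2-D1, an MHC class I gene (0.109), and Sun2, a protein of the inner nuclear membrane (0.118). Rps16 had 1296 CPM in KO and 774 and 649 CPM in WT. For Neat1 they were Pdia3, a disulfide isomerase of the endoplasmic reticulum (0.0541), Adgrg1, an adhesion receptor of stem cells (0.0575), and Cd34, a surface marker of progenitors (0.0640). Cd34 had 416 CPM in KO and 636 and 597 CPM in WT. For Rn45s they were Rpl21 (0.0593) and Rpl37a (0.0698), proteins of the large ribosomal subunit, and Spn, the leukocyte surface protein CD43 (0.0804). Rpl21 had 835 CPM in KO and 550 and 548 CPM in WT.

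Rn45s stood far above the next most abundant gene by count. Eef1a1, a translation elongation factor, had 1656 counts in KO and 2158 and 2935 in WT. Library totals without Rn45s gave a log2 ratio of 1.06 for Malat1 and -0.64 for Neat1, against 1.05 and -0.65 with it. The share of Rn45s thus moved each ratio by 0.01.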

How the data were processed

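Per the labels' protocols, total RNA came from an RNeasy micro kit and the sequencing libraries from NEB kits. The submitters' processing notes name STAR and mm10, with no version or role. The authors deposited whole-number counts and FPKM per RefSeq transcript; no source used here names the tools for either. Counts of a gene's transcripts repeat shared reads, so a gene's count was its highest row (8313 genes had more than 1 row). CPM is on library totals. Shares have 95% Clopper-Pearson intervals. Intervals and floors of 3 counts cover counting error only. Lengths implied by FPKM used library totals of 260231 (KO), 358613 and 321421 (WT), the medians over single-transcript genes with at least 30 counts. All genes were fitted with edgeR 4.0.16 in R 4.3.3 (filterByExpr, TMM, quasi-likelihood F-test, Benjamini-Hochberg); SE is the absolute log2 fold change over the square root of F. The fit was tested on simulated data. Alternatives used DESeq2 1.42.0, other scalings, filters and FPKM. The 4 RNAs and the lists were chosen with earlier results of these data known. Genes named from lists were the most abundant members and any called. Nono, Sfpq, Sf3b1, Hnrnpk, Fbl, Rrn3, Cd3eap, Polr1c, Polr1d, Elac2, Frmd8, Slc25a45, Rmrp, Rpph1, Mascrna, Eyelinc18, Gm6548 and members at 0 were chosen after their values were seen. Some genes the rule names are not reported here.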

Additional observations from a re-analysis of the deposited data

How the results depend on the processing

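The log2 ratios of KO to WT kept their sign under every alternative run, except that of Neat1 in FPKM as deposited, which was 0.08. Over library totals, TMM, DESeq2 and upper-quartile scaling and totals without Rn45s they ranged from 1.03 to 1.10 for Malat1, from -0.68 to -0.60 for Neat1, from 0.56 to 0.62 for Rn45s and from 2.08 to 2.13 for Meg3. Leaving out either WT replicate gave 0.93 to 1.18 for Malat1, -0.76 to -0.54 for Neat1, 0.51 to 0.64 for Rn45s and 1.62 to 2.77 for Meg3. With FPKM scaled to its sum over genes, as the highest row or as the sum over rows, the ratio was -0.03 for Neat1, where WT replicate 2 has its FPKM on the long transcript, and 0.46 for Rn45s. The sum over rows and the use of FPKM as deposited (0.58 for Rn45s) were added after seeing the data. The count of 8 called genes was unstable. It was 3 with upper-quartile factors, 4 with no filter, 1 with mean counts over transcripts, 0 with DESeq2 and 0 when Rn45s was left out of the table, which also changed the filter (8026 genes tested). With Rn45s left out after filtering it was 6. With at least 10 counts in every library or 50 in any it was 131 (27 higher, 104 lower), and 0 when library sizes were recomputed over the genes kept. The cause was not tested. The last recomputation and the removal after filtering were added after seeing the data. Without a WT replicate no residual degree of freedom remains, so no test was run. No paired analysis was possible because the KO library carries no replicate number.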
